A study of Homo sapiens with 3 samples.

Results

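The genes described here build ribosomes. They are 35 genes for nucleolar assembly factors and for RNA polymerase I with its factors, chosen by name from a list of such genes, and every probe set annotated to 1 of them alone was taken on all 3 arrays. Of the 35 genes, 31 had such a probe set and all 31 passed the filter on low signal, among 12307 genes compared in the series. The remaining 4 are not analysed here: the probe sets of DKC1, NOP56 and BOP1 are also annotated to small RNA genes, and none was listed for GNL3.

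The cells were IMR-90, a line of human fetal lung fibroblasts, and RNA was taken 24 h after transfection with RNAiMAX. One sample received the control siRNA, labelled Ctrl and GL3, another the SETD8-1 siRNA and the last the SETD8-2 siRNA, all in medium with 10% serum and with no other labelled treatment. SETD8, also called PR-Set7 and now KMT5A, is a histone H4 lysine methyltransferase, and the design compares each of 2 siRNAs against it with the control siRNA. Each siRNA was measured once, so no spread between replicates is known and nothing was tested. Both SETD8 siRNAs are compared with the same control array, so a deviation of that array enters both comparisons.

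The values are linear signals made with MAS5, with array medians of 44.9 to 46.2. KMT5A itself was at 938.9 on the control array, 431.4 on the SETD8-1 array and 584.1 on the SETD8-2 array (45.9% and 62.2% of control). These are signals of the brightest of 4 KMT5A probe sets, of a type that can bind several transcripts, and the others were not compared. All 9 fibroblast markers passed the filter on low signal, with a sum of 158218, 149711 and 168076 in the same order, but single markers differed in direction. VIM and COL1A1 were within 1.5-fold of control. DCN was at 20075, 7745.9 and 22971, low with SETD8-1 siRNA (38.6% of control), as was THY1 to a lesser degree (5200.3, 3480.9 and 6393.0), and LUM was at 13729, 10702 and 23798, high with SETD8-2 siRNA. Among markers of other cells, 3 of 6 epithelial, 3 of 5 endothelial and 0 of 5 leukocyte genes passed the filter. The epithelial ones were KRT18 (2987.4, 2962.8 and 6010.1), EPCAM (157.1, 49.1 and 194.2) and KRT8 (106.1, 126.2 and 233.7). The endothelial ones were TEK (1251.3, 1274.8 and 2033.1), PECAM1 (49.0, 135.0 and 52.7) and VWF (59.7, 130.5 and 80.9). Examples under the filter were CDH1 at 17.7 to 23.4, CDH5 at 1.5 to 4.9 and PTPRC at 15.9 to 31.1. Summed signal of the epithelial list, mostly KRT18, was 3353, 3196 and 6491. That of the endothelial list, mostly TEK, was 1368, 1570 and 2175, and that of the 3 leukocyte genes with a probe set 52.9, 91.3 and 105.5. The part of these differences in the values below was not tested. The 10 proliferation markers had median log2 fold changes of -2.53 and -2.34, each against the control siRNA and for SETD8-1 siRNA first, as in all pairs below.

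Ribosome production begins in the nucleolus, where RNA polymerase I copies the ribosomal DNA into a long precursor RNA. Small nucleolar ribonucleoproteins (snoRNPs) modify that RNA, and separate sets of assembly factors fold and cut it into the small and the large ribosomal subunit. Dividing cells invest heavily in this pathway, and MYC and growth factor signals are known to raise it.

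Most of these genes stayed close to the control signal. With both SETD8 siRNAs, 26 of 31 members (83.9%) differed from the control by under 1.5-fold, against 58.9% of all genes compared. Among all genes that share varied with signal level and was 41.2% in the lowest quartile of signal, 54.5% in the second, 65.0% in the next and 75.04% in the highest, where the members had 1 of 1, 8 of 10, 8 of 10 and 9 of 10 genes. The median log2 fold change of the members was -0.01 (SD over members 0.36) and -0.11 (SD 0.36), beside -0.02 and -0.01 over all genes. The first of these turned to 0.02 when arrays were scaled to a common median. In all, 13 members (41.9%) were lower with both siRNAs at any size, 8 (25.8%) were higher with both, and 10 had opposite signs, beside 33.9%, 31.1% and 34.9% of all genes.

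Counted by size, FBL and UTP20, 2 of 31 members (6.45%), had signals reduced 1.5-fold or more on both SETD8 arrays, as did 7.37% of all genes. No member was 1.5-fold higher with both (4.59% of all genes), and none was 2-fold lower or higher with both (3.23% and 1.5% of all genes). Counted for each siRNA by itself, 4 members were 1.5-fold lower and 0 higher with SETD8-1 siRNA (16.4% and 12.7% of all genes), namely FBL, UTP20, POLR1E and UBTF. With SETD8-2 siRNA 2 were lower, again FBL and UTP20, and 1 was higher, TAF1D (14.7% and 11.6%). The shares of members were thus near or under those of all genes. As a yardstick for single genes, the 95th percentile of the distance (log2, either sign) from one SETD8 array to the other was 2.21, 1.72, 1.25 and 1.14 from the lowest to the highest quartile of signal. No member lay beyond it with either siRNA (5.69% and 4.07% of all genes did, and 2.14% with both). The SETD8 arrays had different siRNAs, so this distance can include effects particular to 1 of them and is not measurement error alone. KMT5A, the targeted gene, did not lie beyond it either (-1.12 and -0.68, yardstick 1.72). Lying within the yardstick therefore does not mean that a gene was unchanged.

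Promoter sequence is a property that did not enter the choice of genes. Among 29 members with an entry in RefSeq promoter sequences (GRCh38.p14, 250 bases before to 50 after each start), 13 (44.8%) held the E-box CACGTG, the palindrome bound by MYC with MAX and by related factors, beside 8.77% of 27305 genes with an entry and 12.6% of the 10031 of those that were compared on the arrays. The members were FBL, GNL3, NOP14, RRP9, UTP4, UTP20, NAT10, BYSL, WDR43, NOP2, PES1, DDX21 and MYBBP1A. All 13 matches began between 31 bases before and 36 bases after the start, where base 1 is the start itself, and 8 of the 13 lay after it. Of 2821 matches in all promoters, 723 (25.6%) lay within a like span, which was set to hold those of the members. The windows of FBL and UTP20 are shown because these genes were the lowest with both siRNAs, and those of NAT10, UTP4, BYSL and DDX21 for contrast, since their signals lay closer to control. Capitals mark the E-box, with 12 bases on either side, in the direction of transcription.
FBL, chr19:39846356-39846385, minus strand: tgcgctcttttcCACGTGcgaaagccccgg
UTP20, chr12:101280083-101280112, plus strand: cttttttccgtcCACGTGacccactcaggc
NAT10, chr11:34105602-34105631, plus strand: aatgcgcttgcgCACGTGctgtctaccagt
UTP4, chr16:69132621-69132650, plus strand: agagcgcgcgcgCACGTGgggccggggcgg
BYSL, chr6:41921515-41921544, plus strand: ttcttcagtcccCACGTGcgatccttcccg
DDX21, chr10:68956604-68956633, plus strand: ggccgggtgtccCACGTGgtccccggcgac

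The 12 members with the E-box that were compared had median log2 fold changes of -0.01 and -0.08, ranging from -0.91 to 0.26 and from -1.12 to 0.22. The 14 without it had 0.02 and -0.05, so the groups overlapped. UTP20 carries the motif 10 bases before its start and FBL 7 bases into the transcript. The 120 bases ahead of the UTP20 start are printed with the motif in capitals, from chr12:101279985-101280104, plus strand.
UTP20: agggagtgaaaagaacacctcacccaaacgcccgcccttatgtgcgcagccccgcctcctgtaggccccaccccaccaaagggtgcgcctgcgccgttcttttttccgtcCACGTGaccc

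A further 4 motifs were searched on both strands, none of which contains another. The ETS motif CCGGAAG was in 10 of 29 members (34.5%), beside 22.2% of genes compared, and CCAAT, the box bound by NF-Y, in 10 (34.5%) beside 43.2%. TTTGAA, the core of a repressor element of cell cycle genes, was in 5 (17.2%) beside 14.2%, and TATAAA in 1, UTP20, beside 8.75%. A match states only that these letters are present.

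**Figure D1:**
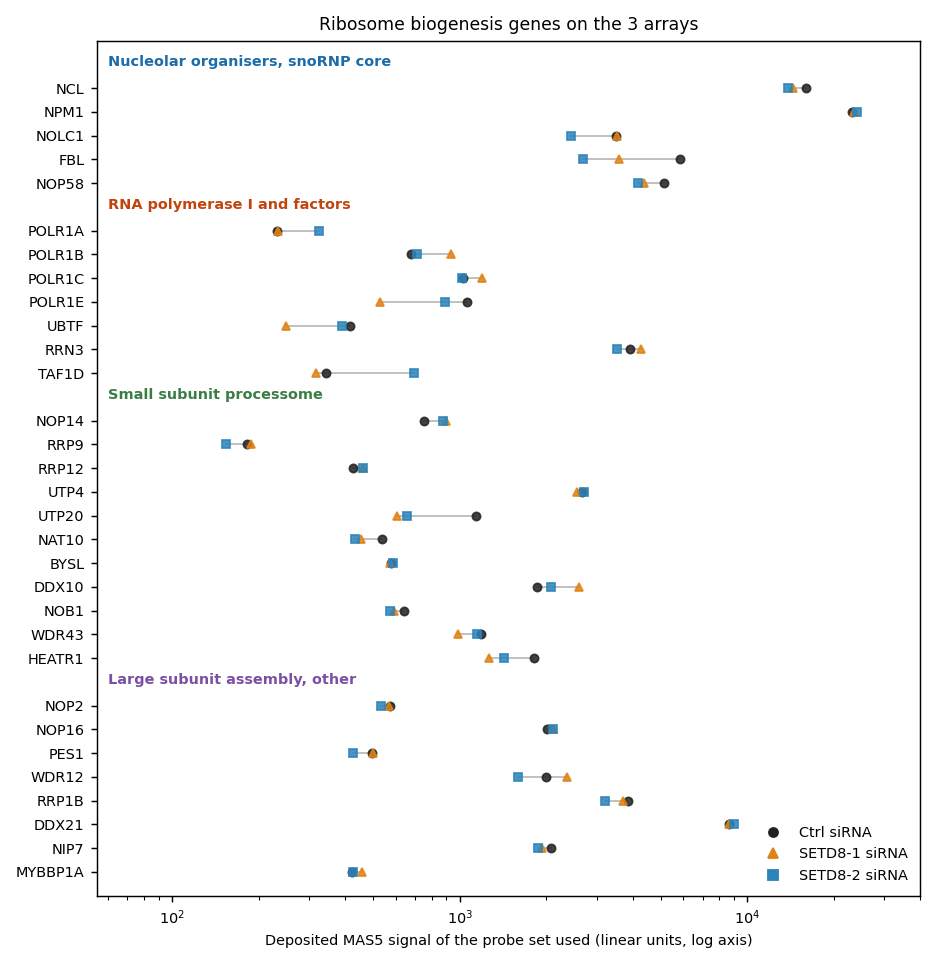
Signal of each of the 31 measured genes (rows, by role) on the 3 arrays, on a log axis in linear MAS5 units. Black circles are the Ctrl siRNA array, orange triangles the SETD8-1 siRNA array and blue squares the SETD8-2 siRNA array. For most genes the 3 symbols lie close together, and the widest gaps are those of FBL (5832.6 to 2691.5), UTP20 (1141.2 to 606.0), POLR1E (1064.2 to 527.7) and TAF1D (692.1 to 316.1). Levels of different genes come from different probes and are not comparable.

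FBL, fibrillarin, is the enzyme that methylates ribose in ribosomal RNA within box C/D snoRNPs. The control array gave 5832.6, the SETD8-1 array 3569.3 and the SETD8-2 array 2691.5, which is 61.2% and 46.1% of control. Signals in threes below keep this order. Both SETD8 arrays were low, the second lower than the first. The log2 fold changes were -0.71 and -1.12, and 430 of the 12307 genes (3.49%) were as low or lower with both siRNAs. FBL has a single probe set here, of a type that can bind several transcripts, so the value has no second probe set behind it.

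NOP58, a structural partner of FBL in the same snoRNP, had 5139.7, 4358.9 and 4171.9, or -0.24 and -0.30 on the log2 scale. Both SETD8 arrays were slightly low. NOLC1, a chaperone of snoRNPs in the nucleolus and Cajal bodies, had 3488.1, 3529.0 and 2435.0, so that only the SETD8-2 array stood apart (-0.52). All 3 probe sets of NOLC1 were lower with SETD8-2 siRNA (-0.46 to -0.58), whereas with SETD8-1 siRNA they ran from -0.15 to 0.24.

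NCL, nucleolin, an abundant RNA-binding protein of the nucleolus, had 16004, 14398 and 13829 (-0.15 and -0.21). NPM1, nucleophosmin, which organises the outer layer of the nucleolus and chaperones histones and ribosomal proteins, had 23050, 23508 and 23995 (0.03 and 0.06), with little difference among the arrays. The 2 dimmer NPM1 probe sets were lower on both SETD8 arrays, at 13288, 11559 and 10227 for one (-0.20 and -0.38) and 8436.2, 6857.3 and 5908.8 for the other (-0.30 and -0.51). The probe sets of NPM1 therefore disagree in sign, and the sign of its value used here also turned after quantile normalization (-0.07 and -0.05). The median of the 5 measured genes of this group was -0.15 (SD over members 0.30) and -0.30 (SD 0.44).

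RNA polymerase I and its factors had the widest spread among the 4 groups with SETD8-1 siRNA, with medians of 0.02 (SD 0.53) and -0.01 (SD 0.45) over 7 genes. POLR1A and POLR1B are the largest subunits and form the active centre. POLR1A had 231.1, 234.1 and 323.4 (0.02 and 0.48), but 1 of its other 2 probe sets was lower on both SETD8 arrays (-0.37 and -0.34) and the other was higher (0.31 and 0.36). POLR1B had 676.7, 930.7 and 708.7 (0.46 and 0.07), and with SETD8-1 siRNA its value became 0.07 when its 4 probe sets were averaged and -0.27 without shared probe sets, so no direction is settled for either subunit. POLR1C, a subunit shared with RNA polymerase III, had 1029.5, 1198.0 and 1019.3 (0.22 and -0.01). Its other probe set, nearly as bright, was higher with both siRNAs (0.27 and 0.34), so its sign with SETD8-2 siRNA is not settled.

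POLR1E, a subunit particular to RNA polymerase I that helps it engage the promoter, had 1064.2, 527.7 and 891.2. Its signal with SETD8-1 siRNA was 49.6% of control (-1.01) and with SETD8-2 siRNA 83.7% (-0.26). It was the 1 member at least 2-fold lower with SETD8-1 siRNA (7.75% of all genes), where 0 were 2-fold higher (5.48%). It lay just under 2-fold with arrays scaled to a common median (-0.98), after quantile normalization (-0.93) and with a pseudocount of 16 (-0.99), and at -0.78 with probe sets averaged. Its other probe sets, dimmer ones, had -1.25 and -0.54 and then -0.08 and -0.67, lower on both SETD8 arrays but by unequal amounts.

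UBTF, the HMG-box factor that coats active ribosomal genes, had 415.2, 249.6 and 388.9, at 60.1% and 93.7% of control (-0.73 and -0.09). All 4 UBTF probe sets above the filter were low with SETD8-1 siRNA by a similar amount (-0.71 to -0.84), and with SETD8-2 siRNA they ran from -0.01 to -0.48. A further UBTF probe set lay under the filter, at 2.3, 35.7 and 15.4, and including it in an average gave -0.29 for SETD8-1 siRNA. RRN3, which joins the polymerase to the factors on the promoter and responds to growth signals, had 3908.0, 4273.1 and 3534.6 (0.13 and -0.14).

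TAF1D, a subunit of the selectivity factor that marks the ribosomal promoter, had 342.5, 316.1 and 692.1. Only the SETD8-2 array was high, at 202% of control (1.01) against 92.3% with SETD8-1 siRNA (-0.12). It was the 1 member at least 2-fold higher with SETD8-2 siRNA (4.46% of all genes), has a single probe set, and was at 0.98 with the pseudocount. FBL was the 1 member at least 2-fold lower with SETD8-2 siRNA (6.65% of all genes). Between the SETD8 arrays themselves, TAF1D (1.13), POLR1E (0.76) and UBTF (0.64) were at least 1.5-fold higher with SETD8-2 siRNA than with SETD8-1 siRNA, and no member was lower by that much. These 3 of 31 genes all belong to RNA polymerase I and its factors, a grouping seen only after the values were known, and 14.3% and 13.5% of all genes were higher and lower by that size in that comparison.

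**Figure D2:**
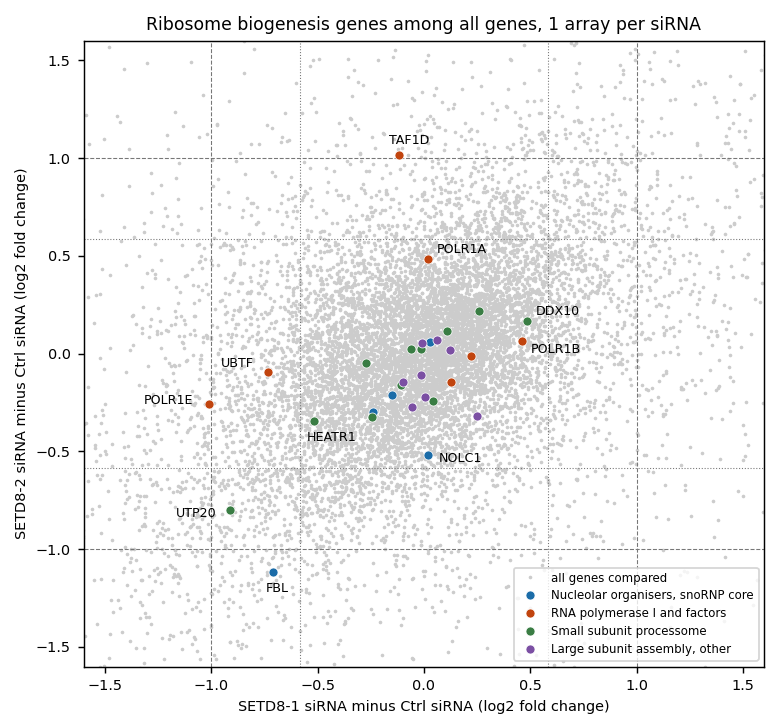
Log2 fold change against the Ctrl siRNA array with SETD8-1 siRNA (x axis) and SETD8-2 siRNA (y axis) for 11355 of the 12307 genes (grey; the other 952 lie beyond 1.6 on an axis) and for the 31 members (coloured by role). Dotted lines mark 1.5-fold and dashed lines 2-fold. FBL and UTP20 lie in the lower left corner, beyond 1.5-fold with both siRNAs, and POLR1E, UBTF and TAF1D depart along 1 axis. Both axes use the same control array.

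Factors of small subunit assembly, early and late, had medians of -0.06 (SD 0.38) and -0.05 (SD 0.29) over 11 genes. The figures label this group by the small subunit processome, the large complex that assembles on the nascent precursor RNA. UTP20, a very large scaffold protein of this complex, had 1141.2, 606.0 and 655.5, or 53.1% and 57.4% of control. Both SETD8 arrays were low and close to each other (-0.91 and -0.80), and 518 of 12307 genes (4.21%) were as low or lower with both. UTP20 has a single probe set. HEATR1, a subunit linked to transcription of the ribosomal genes, had 1810.9, 1264.8 and 1426.8 (-0.52 and -0.34), and its 3 probe sets above the filter were lower with both siRNAs. NAT10, the acetyltransferase of small subunit RNA, had 539.2, 454.6 and 431.5 (-0.25 and -0.32), again low on both.

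WDR43, which acts beside HEATR1, had 1188.8, 985.7 and 1148.7 (-0.27 and -0.05), low mainly on the SETD8-1 array. NOB1, the nuclease of the last cut in small subunit RNA, had 638.8, 593.5 and 572.6 (-0.11 and -0.16). BYSL, a late assembly factor, had 578.3, 572.5 and 587.5 (-0.01 and 0.02), and UTP4 had 2666.4, 2554.7 and 2711.9 (-0.06 and 0.02). For BYSL and UTP4 the 3 arrays were nearly level.

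RRP9, a protein of the U3 snoRNP, had 182.8, 188.4 and 154.4 (0.04 and -0.24). On the higher side were DDX10, an RNA helicase, with 1853.5, 2593.2 and 2083.1 (0.48 and 0.17), NOP14 with 750.5, 898.5 and 872.9 (0.26 and 0.22), and RRP12, a factor for export of both subunits, with 427.4, 460.7 and 462.5 (0.11 with either siRNA). DDX10 and NOP14 were thus higher on both SETD8 arrays, as was the RRP12 probe set used. The other RRP12 probe set above the filter was higher with SETD8-1 siRNA (0.28) but lower with SETD8-2 siRNA (-0.16), so the direction of RRP12 with SETD8-2 siRNA is not settled. Of the 11 genes, 0 were 1.5-fold higher with either siRNA (12.7% and 11.6% of all genes), a count from which nothing is read in so few genes.

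Large subunit assembly factors and other nucleolar proteins varied least, with an SD over 8 members of 0.11 and 0.15 and medians of -0.00 and -0.13. By the probe sets used, none of the 8 was at 1.5-fold with either siRNA. Of all genes, 16.4% and 14.7% were that much lower, and 12.7% and 11.6% higher. PES1 and WDR12 belong with BOP1 to a complex needed for large subunit RNA processing. PES1 had 497.7, 499.5 and 427.2 (0.01 and -0.22), and WDR12 had 1989.6, 2364.0 and 1594.6 (0.25 and -0.32), with opposite signs on all 3 of its probe sets. NOP2, an RNA cytosine methyltransferase, had 574.3, 569.2 and 531.5 (-0.01 and -0.11).

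DDX21, a helicase that binds both polymerase I and II genes, had 8673.6, 8629.6 and 8998.8 (-0.01 and 0.05). NIP7 had 2075.5, 1937.2 and 1876.8 (-0.10 and -0.15), RRP1B had 3852.9, 3700.7 and 3191.6 (-0.06 and -0.27), and NOP16 had 2015.4, 2105.9 and 2116.3 (0.06 and 0.07). MYBBP1A, a nucleolar protein that binds transcription factors, had 422.4, 459.1 and 427.2 (0.12 and 0.02). On the probe sets used, the arrays thus lay within 1.5-fold of one another for these genes. A dimmer MYBBP1A probe set, above the filter, had 51.7, 78.5 and 61.8 (0.60 and 0.26), over 1.5-fold higher with SETD8-1 siRNA.

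**Figure D3:**
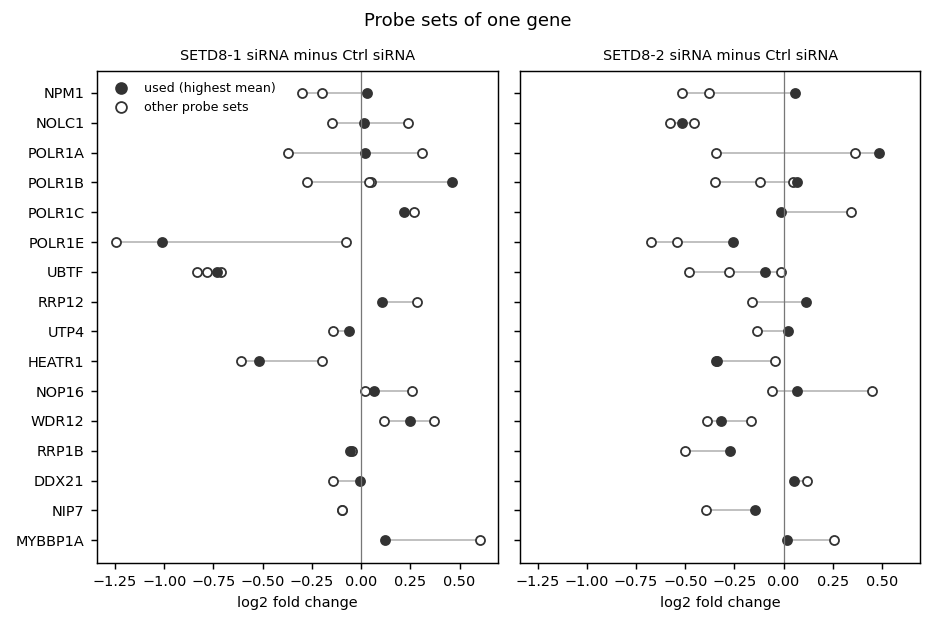
Log2 fold change of every probe set above the signal filter for the 16 members with over 1 such probe set, with SETD8-1 siRNA on the left and SETD8-2 siRNA on the right. Filled circles are the probe sets used (highest mean signal on the log2 scale) and open circles the others. UBTF probe sets lie together on the left panel and NOLC1 probe sets on the right, whereas those of POLR1A fall on both sides of 0 in each panel.

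Over the 16 members with more than 1 probe set above the filter, the probe sets had 1 sign for 12 genes with SETD8-1 siRNA, for 9 with SETD8-2 siRNA and for 8 with both. Of these, POLR1E, UBTF, HEATR1, RRP1B and NIP7 were lower with both siRNAs on every such probe set. MYBBP1A was higher with both on its 2, and WDR12 and DDX21 had opposite signs between the siRNAs. A further 12 members, FBL, UTP20 and TAF1D among them, have 1 probe set in all.

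Genes outside the 35 that serve the same pathway gave similar values. Here and in the lists below, each gene has the value of its brightest probe set. Where such a gene has several probe sets, the others were not compared. Of 123 further ribosome biogenesis genes in 4 lists, 116 were compared: 4 (3.45%) had signals 1.5-fold or more below control with both and 1 (0.86%) was that much higher, beside 7.37% and 4.59% of all genes. In all, 93 (80.2%) were under 1.5-fold with both, beside 58.9% of all genes. Of the 116, 35 were in the highest quartile of signal and 3 in the lowest. Among all genes that share was 75.04% in the highest quartile and 41.2% in the lowest, so 58.9% is a low mark for this set. Their medians were -0.06 (SD over genes 0.34) and -0.13 (SD 0.35). None was at least 2-fold apart with both (3.23% and 1.5% of all genes were lower and higher).

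**Figure D4:**
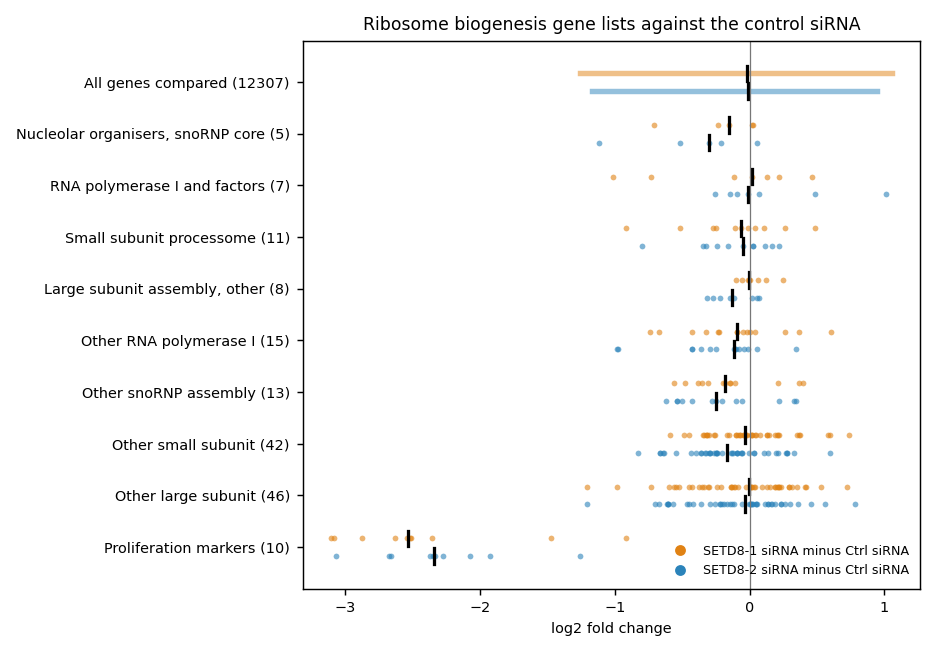
Log2 fold change against the Ctrl siRNA array with SETD8-1 siRNA (orange) and SETD8-2 siRNA (blue), 1 point per gene and a black tick at each median, for the 4 groups of members, 4 lists of other ribosome biogenesis genes and 10 proliferation markers, with the number of genes in brackets. For all genes the bar spans the 5th to the 95th percentile (-1.26 to 1.06 and -1.17 to 0.94). The medians of the ribosome lists lie between -0.30 and 0.02, apart from those of the proliferation markers at -2.53 and -2.34.

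Of 15 other RNA polymerase I genes, TCOF1, treacle, which works with UBTF on ribosomal genes, had 272.2, 170.8 and 138.1 (-0.67 and -0.98) and was the 1 gene 1.5-fold lower with both. POLR1D, a partner of POLR1C, had 4014.4, 3871.9 and 2034.6, low with SETD8-2 siRNA alone (-0.05 and -0.98). POLR1G, the partner of POLR1E in the polymerase, had 454.3, 272.9 and 441.2 (-0.74 and -0.04). Like POLR1E and UBTF it was low mainly on the SETD8-1 array. TTF1, the terminator protein, had 777.2, 619.7 and 577.3 (-0.33 and -0.43).

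Among 13 other snoRNP genes none reached 1.5-fold with both siRNAs, where 7.37% of all genes were lower and 4.59% higher. At any size, 8 (61.5%) were lower with both and 1 (7.69%) was higher, beside 33.9% and 31.1% of all genes. The medians were -0.18 and -0.25. GAR1, of the snoRNPs that make pseudouridine, had 2283.4, 1545.9 and 1614.6 (-0.56 and -0.50), and the snoRNP assembly factors NUFIP1 (-0.48 and -0.54), RUVBL1 (-0.38 and -0.54) and NAF1 (-0.20 and -0.62) were low on both SETD8 arrays as well.

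Of 42 other small subunit genes, 1 was 1.5-fold lower with both, the methyltransferase EMG1, at 2757.0, 1831.9 and 1774.7 (-0.59 and -0.64). The helicase DHX37 had -0.49 and -0.83, PWP2 had -0.25 and -0.67, and UTP3 lay on the other side with 0.73 and 0.33. Of 46 other large subunit genes, 2 were 1.5-fold lower with both and 1 higher. BRIX1, an early large subunit factor, had 1150.2, 581.0 and 499.0 (-0.99 and -1.20). LAS1L, a subunit of a nuclease complex and the other of these 2, named after its value was seen, had 528.9, 348.7 and 346.2 (-0.60 and -0.61). URB2 had -1.20 and -0.57 and the remodelling motor MDN1 -0.56 and -0.67. ZNF622, a factor of late large subunit maturation, had 1948.5, 3211.9 and 3357.5 and was high on both SETD8 arrays (0.72 and 0.79).

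Regulators of the pathway did not share 1 direction. MYC had 1417.1, 1137.6 and 1533.2 (-0.32 and 0.11), low on one SETD8 array and slightly high on the other. Of 16 genes for growth control and chromatin of ribosomal DNA, 2 (12.5%) were 1.5-fold lower with both and 2 (12.5%) higher, beside 7.37% and 4.59% of all genes. The higher ones were MXD1 (327.7, 906.3 and 638.1, or 1.47 and 0.96) and MNT (930.1, 1692.8 and 1727.2, or 0.86 and 0.89). Both encode repressors that pair with MAX and bind the same E-box, and any action of theirs on the members was not tested. The lower ones were EIF4EBP1, a translation inhibitor controlled by mTOR (2019.1, 1261.6 and 919.1, or -0.68 and -1.14), and KDM2B, a histone demethylase (1000.0, 649.1 and 629.5, or -0.62 and -0.67).

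Faulty ribosome assembly is known to act on p53 through free ribosomal proteins and MDM2. Of 7 genes listed for this, 5 were compared and none was 1.5-fold apart with both siRNAs (7.37% and 4.59% of all genes were lower and higher). RPL11 had 22164, 23296 and 22113 (0.07 and -0.00). MDM2 and RPL11 are given for their place in that route, chosen with their values known. MDM2 had 3555.5, 5044.4 and 2883.0 (0.50 and -0.30), with opposite directions on the SETD8 arrays. These values come from the brightest of 10 MDM2 probe sets, of a type that can bind several transcripts. The other MDM2 probe sets were not compared, so its direction rests on that probe set alone. CDKN1A, the p53 target that encodes p21, had 6063.7, 15760 and 8246.7 (1.38 and 0.44), high on both and most so with SETD8-1 siRNA. HEXIM1 had 0.55 and 0.06, and GRWD1 -0.30 and -0.21.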

How the data were processed

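For each of 3 siRNAs, biotin-labelled cRNA from 250 ng of total RNA was hybridised to 1 array, per the labels' protocols. The authors deposited intensity values on a linear scale, from MAS5 per the submitters' processing notes (settings: not given in the sources used here). Each array has the same trimmed mean, 497 (2% trimmed at each end), so a shift common to all genes cannot be seen. Of 54613 probe sets, 41091 had 1 gene symbol in GEO's platform annotation, 41037 of them brought up to date by gene number (RefSeq, GRCh38.p14); 1801 with several symbols were left out and 11721 were not listed. Signals under 11.7 (the 25th percentile) were set to that floor before log2 was taken. Each gene took its probe set with the highest mean, and genes whose mean reached the median over probe sets (5.39, a signal of 42.0) were compared.

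Genes were counted at 1.5-fold and 2-fold, with no test. The members and lists were chosen with earlier results of these data known. The text names all members, KMT5A, MYC and some of the cell type markers. The proliferation markers are given by their median alone. Each further list gives up to 4 genes with the largest mean change among those with 1 direction on both SETD8 arrays. Genes outside this rule are marked. Promoter letters were matched on both strands. Tried as alternatives were a common median, quantile normalization, 16 added in place of the floor, leaving out the filter, filtering at the 75th percentile, averaging a gene's probe sets, and leaving out probe sets that several transcripts can share (_s_at, _x_at, _a_at). The scripts were tested on simulated data. The software was Python 3.11.15 with matplotlib 3.10.9, scipy 1.17.1, pandas 2.3.3 and numpy 2.4.6.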

Additional observations from a re-analysis of the deposited data

How the results depend on the processing

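The number of array values, 1 per siRNA, limits what can be said, and dim probe sets may hold background. Across the 7 alternatives the counts of members 2-fold apart with both siRNAs, and 1.5-fold higher with both, stayed at 0. The count of members 1.5-fold lower with both stayed at 2, FBL and UTP20, under 6 of them and was 1, UTP20, without shared probe sets, since the only FBL probe set is of that kind. The median over members ran from -0.08 to 0.02 with SETD8-1 siRNA and from -0.13 to -0.05 with SETD8-2 siRNA. Of 416 single values under alternatives, 412 moved by less than 0.33, the median difference between the SETD8 siRNA arrays, 4 moved by more (POLR1B with SETD8-1 siRNA under 2 settings, UBTF with SETD8-1 siRNA and NPM1 with SETD8-2 siRNA with averaged probe sets), and 22 changed sign, none of them 1.5-fold or more. No paired analysis was possible because each siRNA has 1 array.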
